A study of Mus musculus with 8 samples.

Results

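The cathepsins Ctsb, Ctsd, Ctsl and Ctsz are proteases of the lysosome, and their RNA was followed after hepatocyte growth factor (HGF) in MLP-29, a line of progenitor cells from mouse liver. The genes were chosen by symbol, with every probe of the deposited table annotated to them: 4 of 16593 named genes and 5 of 25697 probes, 2 of them for Ctsz. RNA was hybridised to Illumina Mouse8 V2 bead arrays, 1 array per culture. The 4 groups were control medium and HGF for 1 h, 6 h or 24 h, each with 2 biological replicates, a and b, from repeats of the whole experiment. All groups, control included, were the same unmodified cell line, starved progressively for 1 week and then kept in medium with 2% bovine serum, and all cultures of a repeat were lysed together, so the control group has no time of its own. A single cell line limits what the groups model, and no protein or enzyme activity was measured here.

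Cathepsins are made as inactive precursors, tagged with mannose 6-phosphate in the Golgi, carried to the lysosome and activated there by cleavage. Ctsb, Ctsl and Ctsz are cysteine proteases of the papain type, and Ctsd is an aspartic protease. Cells can also secrete them, and secreted cathepsins are known to cleave extracellular matrix. HGF activates the receptor tyrosine kinase Met, which drives scattering, migration and branching of epithelial cells.

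Between 11569 and 11893 probes were detected per array (45.0% to 46.3%), and arrays of the same group correlated at 0.990 to 0.993 across genes, against 0.965 to 0.987 between groups. Of the markers of liver progenitors and biliary epithelium, 8 of the 10 with a named probe were measured, namely the keratins Krt7, Krt8, Krt18 and Krt19 with Sox9, Cdh1, Cldn7 and Met, while Prom1 and Cldn4 were detected on 0 arrays. Of 12 hepatocyte markers only Hnf4a was measured, and Alb and Afp were detected on 0 arrays. Of 12 fibroblast markers 0 were measured, although Acta2 was detected on 4 arrays, with no probe detected on both arrays of a group. Of 9 endothelial markers only Eng was measured. Of 11 macrophage and blood cell markers with a named probe 3 were measured, Cd14, Aif1 and Coro1a. Cd52 was detected on 3 arrays without being measured, and Ptprc, Adgre1 and Lyz2 were detected on 0.

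Of the 4 cathepsins, Ctsl alone passed the test against control in the main fit, which did not pair the replicates. Ctsl RNA was higher at 1 h and 6 h, and at 24 h its arrays overlapped with control. Ctsz and Ctsd RNA lay below control on every HGF array, furthest at 24 h, but did not pass the test against control in that fit. With the replicate letter as a block, Ctsz passed at 24 h and Ctsd at 6 h. No difference in Ctsb RNA passed the test. Values below are normalised log2 signals, taken after an offset of 16 was added to the background-corrected signal, so changes of dim probes are understated. Differences are log2 changes with their standard error from limma, with p-values adjusted over all 8183 genes tested and called under 0.05. All 5 probes had a detection p-value of 0 on all 8 arrays, that is, no negative control bead type was brighter.

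**Figure D1:**
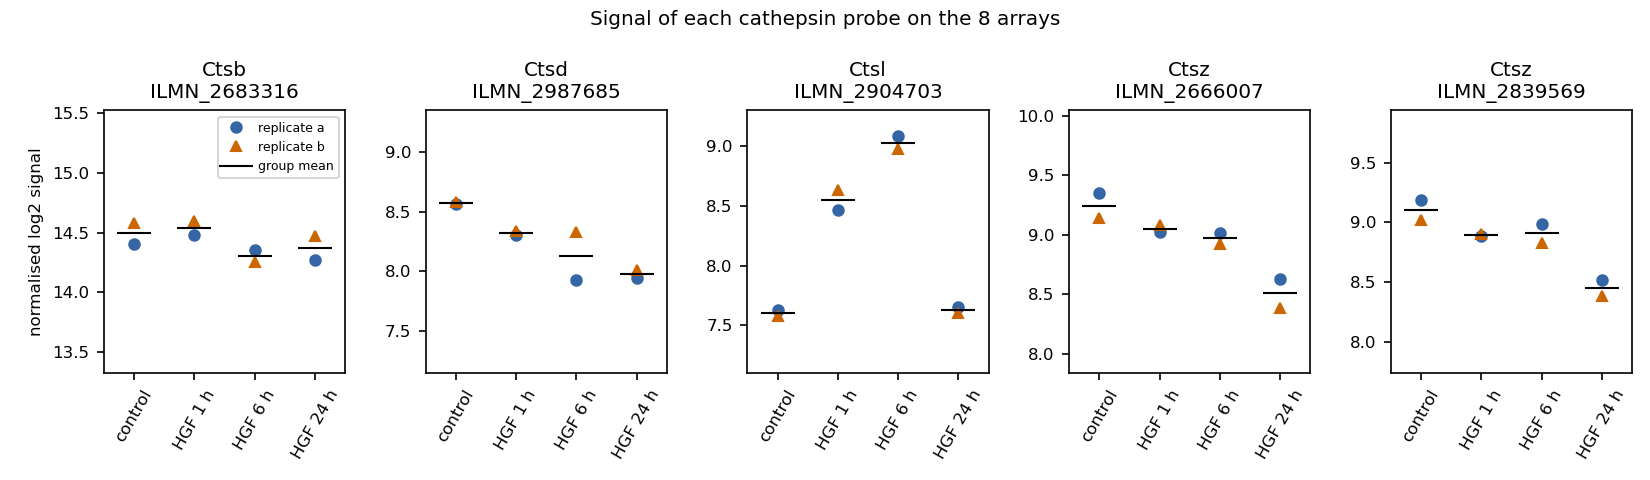
Normalised log2 signal of the 5 probes of Ctsb, Ctsd, Ctsl and Ctsz (vertical axis, centred on each probe) in control and after HGF for 1, 6 and 24 h. Each point is 1 array, 2 per group, and bars mark group means. Ctsl is highest at 6 h (8.98 and 9.08), and both Ctsz probes are lowest at 24 h.

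Ctsl encodes an endopeptidase that degrades lysosomal protein and can be secreted as its precursor. Its normalised log2 signal was 7.63 and 7.58 on the control arrays a and b, 8.46 and 8.63 at 1 h, 9.08 and 8.98 at 6 h, and 7.65 and 7.60 at 24 h. The raw signals before any normalization were 307.1 and 252.5 in control, 463.6 and 413.9 at 1 h, 664.8 and 491.9 at 6 h, and 322.5 and 286.2 at 24 h. Both arrays at 1 h lay above both control arrays, as for 19.2% of all genes, and so did both at 6 h, as for 28.3%. The arrays at 24 h overlapped with control.

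Ctsl rose by 0.95 ± 0.12 at 1 h (1.93-fold, adjusted p = 0.00658), when 2.63% of all genes were called higher. At 6 h it was higher by 1.43 ± 0.12 (2.69-fold, adjusted p = 0.00102), when 9.28% of genes were called higher. At 24 h the difference from control was 0.02 ± 0.12 (95% interval -0.26 to 0.30, adjusted p = 0.929). Among all genes tested, Ctsl had the 172nd steepest rise at 1 h and the 89th at 6 h. The call at 1 h was lost without control a (0.97, adjusted p = 0.0543) and without HGF 1 h b (0.86, adjusted p = 0.0566), and the call at 6 h was kept without any 1 array.

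The order of the Ctsl levels was 6 h, 1 h, 24 h and control, and the last pair did not differ beyond its spread. From 1 h to 6 h Ctsl rose by a further 0.48 ± 0.12 (adjusted p = 0.0338), with 8.33% of genes called higher. That call stood with 1 of the 8 arrays left out, control a, and was lost without any other, at 0.40 to 0.57. From 6 h to 24 h Ctsl fell by 1.41 ± 0.12 (adjusted p = 0.00163), with 6.34% of genes called lower, and this call was kept without any 1 array. It ranked as the 76th steepest fall of 8183 genes between these times.

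For Ctsl, the RefSeq promoter table (build GRCm38.p6) gives a start that lies 252 bases inside the annotated gene, so its bases before that start lie within the annotated gene and not upstream of it. The windows of 250 bases before to 50 after a start were searched on both strands for CACGTG, the E-box at the core of sites that TFEB binds, the transcription factor known for switching on lysosomal genes, and for TGANTCA, the AP-1 motif. Neither motif overlaps the other. The Ctsl window held 1 E-box, shown in capitals with its neighbouring bases at chr13:64370739-64370768 on the minus strand, and 0 AP-1 matches. Over all promoters in the table, 2349 of 32851 (7.15%) held the E-box and 2565 (7.81%) the AP-1 motif.
Ctsl: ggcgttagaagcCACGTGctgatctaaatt

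Ctsz encodes cathepsin X, a carboxypeptidase that removes single residues from the end of a protein. The brighter of its 2 probes, which stands for the gene, read 9.35 and 9.14 on the control arrays, 9.02 and 9.08 at 1 h, 9.02 and 8.92 at 6 h, and 8.63 and 8.39 at 24 h. The other probe read 9.19 and 9.02 in control, 8.89 and 8.90 at 1 h, 8.99 and 8.83 at 6 h, and 8.51 and 8.38 at 24 h. On both probes the HGF arrays of each time lay below both control arrays, which 29.8% of genes did at 1 h, 33.4% at 6 h and 28.3% at 24 h.

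The log2 difference of Ctsz from control was -0.19 ± 0.14 at 1 h (adjusted p = 0.498), -0.27 ± 0.14 at 6 h (adjusted p = 0.196) and -0.73 ± 0.14 at 24 h (0.602 of control, adjusted p = 0.0812). Without a block, 0% of genes were called in either direction at 24 h by limma, although 1626 genes (19.9%) had an unadjusted p under 0.05. With the replicate letter as a block, Ctsz at 24 h passed the test (adjusted p = 0.0282), as did 3.39% of genes in that direction. The other probe gave -0.66 ± 0.13 at 24 h (adjusted p = 0.0824 over all probes, of which 0% were called, and 0.0328 with the block).

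Between neighbouring times, Ctsz differed by -0.08 from 1 h to 6 h (adjusted p = 0.732) and by -0.46 ± 0.14 from 6 h to 24 h (adjusted p = 0.0684, 0.0403 with the block, in which 9.61% of genes fell). The order of its levels on the brighter probe was control, 1 h, 6 h and 24 h. On the other probe 6 h lay just above 1 h, and the difference between these neighbours missed the test on both probes. At 24 h Ctsz ranked as the 219th lowest change of 8183 genes.

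Ctsd encodes the main aspartic protease of the lysosome. Its normalised log2 signal was 8.57 and 8.58 in control, 8.31 and 8.34 at 1 h, 7.92 and 8.33 at 6 h, and 7.94 and 8.01 at 24 h. Every HGF array lay below both control arrays, and the arrays at 6 h were spread most widely. In raw signal, Ctsd was 524.3 and 432.1 in control, 423.8 and 352.9 at 1 h, 349.3 and 348.4 at 6 h, and 372.5 and 353.4 at 24 h.

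The log2 difference of Ctsd from control was -0.25 ± 0.15 at 1 h (adjusted p = 0.405), -0.45 ± 0.15 at 6 h (adjusted p = 0.0684) and -0.60 ± 0.15 at 24 h (adjusted p = 0.114, 0.0523 with the block). At 6 h it passed the test with the block (adjusted p = 0.0446), where 16.3% of genes were called lower. It also passed there without HGF 6 h b (-0.66, adjusted p = 0.0378). From 1 h to 6 h it differed by -0.20 (adjusted p = 0.407) and from 6 h to 24 h by -0.15 (adjusted p = 0.560), so neighbouring times did not differ beyond their spread. The order of its levels was control, 1 h, 6 h and 24 h, and its change at 24 h was the 396th lowest.

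The promoter windows of Ctsd and Ctsz are shown because their levels had the same order over time, on the brighter Ctsz probe only, and they differ in the E-box. Without the block no neighbouring levels of either gene differed by the test, so this order is a description. The 250 bases before the RefSeq start of Ctsd (GRCm38.p6, chr7:142387828-142388077, minus strand) held 2 matches to CACGTG, in capitals, 245 and 98 bases before the start. The same stretch of Ctsz (chr2:174439040-174439289, minus strand) held 0. Neither held an AP-1 match. A match describes the letters and not a bound site.
Ctsd: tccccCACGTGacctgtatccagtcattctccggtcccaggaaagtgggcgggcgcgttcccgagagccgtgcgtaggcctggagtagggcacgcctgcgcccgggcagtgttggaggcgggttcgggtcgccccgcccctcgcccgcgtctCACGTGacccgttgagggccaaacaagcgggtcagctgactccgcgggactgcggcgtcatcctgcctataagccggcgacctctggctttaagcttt
Ctsz: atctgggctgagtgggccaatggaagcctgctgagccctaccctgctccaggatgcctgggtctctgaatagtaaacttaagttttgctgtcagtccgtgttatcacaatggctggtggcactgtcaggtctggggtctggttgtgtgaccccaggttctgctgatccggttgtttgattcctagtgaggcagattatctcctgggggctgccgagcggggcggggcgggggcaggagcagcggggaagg

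Ctsb encodes a cysteine protease that cuts both inside proteins and from their ends. Its normalised log2 signal was 14.41 and 14.58 in control, 14.48 and 14.60 at 1 h, 14.35 and 14.25 at 6 h, and 14.27 and 14.47 at 24 h. The arrays overlapped with control at 1 h and 24 h, and both lay below control at 6 h. The raw signal ranged from 16765.2 on HGF 6 h b to 24591.2 on HGF 1 h a.

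No Ctsb difference passed the test. The log2 difference from control was 0.05 ± 0.13 at 1 h (95% interval -0.26 to 0.35, adjusted p = 0.895), -0.19 ± 0.13 at 6 h (-0.50 to 0.12, adjusted p = 0.340) and -0.12 ± 0.13 at 24 h (-0.43 to 0.19, adjusted p = 0.646). From 1 h to 6 h it differed by -0.24 (adjusted p = 0.258) and from 6 h to 24 h by 0.07 (adjusted p = 0.773). The order of its levels was 1 h, control, 24 h and 6 h, with no neighbours apart beyond their spread.

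**Figure D2:**
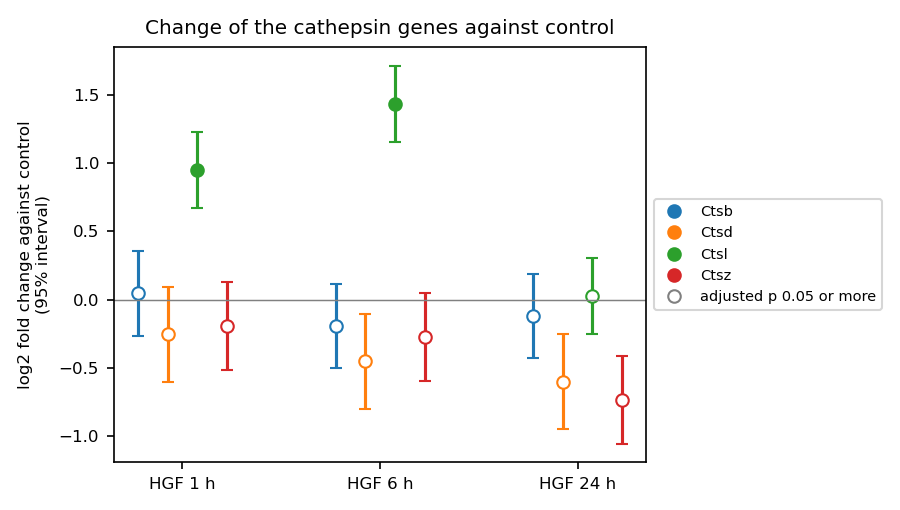
Log2 change of Ctsb, Ctsd, Ctsl and Ctsz against control at 1, 6 and 24 h of HGF (groups on the horizontal axis), with unadjusted 95% intervals from limma over 8 arrays as bars and filled points for adjusted p under 0.05. Ctsl lies at 0.95, 1.43 and 0.02, Ctsz reaches -0.73 and Ctsd -0.60 at 24 h, and the intervals of Ctsb include 0 at each time.

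The other cathepsins on the array were mostly not detected. Of 18 listed, 3 were measured, Ctsa, Ctse and Ctsh. With the brightest probe standing for each gene and no block, 0 of the 3 passed the test in any comparison by limma. At an unadjusted p under 0.05, 1 of them was higher at 1 h, 1 was lower at 6 h and 1 was lower at 24 h, against 20.2%, 36.3% and 19.9% of all genes in either direction. Ctss was detected on 2 arrays, Ctsc on 1 and the other 13 on 0. Ctsh, an aminopeptidase of the papain type, read 12.26 and 11.90 in control, 12.89 and 12.34 at 1 h, 12.10 and 11.70 at 6 h, and 11.28 and 10.64 at 24 h. It was high on both arrays at 1 h and low on both at 24 h. The difference from control at 24 h, -1.12 ± 0.28, missed the test without the block (adjusted p = 0.114) and passed it with the block (adjusted p = 0.0104). With the block it also rose at 1 h, by 0.53 (adjusted p = 0.0390, 0.339 without it), when 4.58% of genes rose in that fit. Ctsh differed by -0.71 from 1 h to 6 h (adjusted p = 0.117, 0.00766 with the block) and from 6 h to 24 h by -0.94 (adjusted p = 0.0654, 0.00326 with the block).

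Ctsa, a carboxypeptidase that also protects other lysosomal enzymes, differed by 0.68 ± 0.26 at 1 h (adjusted p = 0.207), and its control arrays lay far apart at 7.71 and 8.43. Another Ctsa probe rose at 1 h by 0.86 ± 0.13 (adjusted p = 0.0127 over all probes, of which 2.36% rose). From 1 h to 6 h that probe gave -0.72 ± 0.13 (adjusted p = 0.0123 over all probes, of which 7.14% fell). A further Ctsa probe gave -0.93 ± 0.20 there (adjusted p = 0.0242), and the probe standing for the gene -0.54 ± 0.26 (adjusted p = 0.206). The probes of this gene thus gave different calls. Ctse, an aspartic protease of endosomes, differed by -0.21 at 1 h, -0.31 at 6 h (adjusted p = 0.120) and -0.15 at 24 h. Of the inhibitors of cathepsins, 4 of the 14 with a named probe were measured, Cst3, Cstb, Serpinb6a and Serpinb6b, and 0 passed in any comparison by limma, with 0 at 1 h and 6 h and 1, Cst3, at 24 h at an unadjusted p under 0.05. Cst3, the secreted inhibitor cystatin C, differed by -0.07 at 1 h, -0.30 at 6 h (adjusted p = 0.148) and -0.46 ± 0.13 at 24 h (adjusted p = 0.143).

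With the brightest probe standing for each gene, 30 of 92 measured genes in 4 lists of lysosomal function fell at 6 h (32.6%). At that time 12.1% of all genes were called lower. Of the 92, 0 rose at 6 h, when 9.28% of all genes were called higher. Their median log2 change was -0.37, against -0.03 for all genes tested. The count of 30 was 16 without control a, 13 without control b, and 14 without HGF 6 h a or HGF 6 h b. By limma without the block, 0 passed in either direction at 1 h, when 2.16% of all genes were lower, or at 24 h. At an unadjusted p under 0.05, 2 were higher and 2 lower at 1 h, and 2 higher and 23 lower at 24 h, against 20.2% and 19.9% of all genes in either direction. With the block, the autophagy receptor gene Sqstm1 rose at 1 h, when 4.58% of all genes rose in that fit. Ap1s1, a subunit of a sorting adaptor, rose at 6 h with the block, when 12.5% rose. At 24 h 4 of the 92, Lipa, Laptm4b, Atp6v0a1 and Atp6v1d, fell with the block, near the share of all genes that fell, 3.39%. From 1 h to 6 h, 29 of the 92 fell and 1, Pla2g15, rose, when 9.04% of all genes fell. The 29 became 10 without HGF 1 h a, 14 without HGF 1 h b, 11 without HGF 6 h a and 12 without HGF 6 h b, and the 1 became 0 in each fit that left out 1 array. From 6 h to 24 h, 13 rose and 0 fell, when 6.94% of all genes rose. The 13 became 4 without HGF 6 h a, 5 without HGF 6 h b, 6 without HGF 24 h a and 2 without HGF 24 h b, and 8 under median scaling.

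Among the other lysosomal hydrolases, 14 of 31 measured genes fell at 6 h (45.2%) and 0 rose, with a median change of -0.43. Over all genes, 12.1% were called lower and 9.28% higher. A Gusb probe that does not stand for its gene rose at 6 h by 0.73 ± 0.19 (adjusted p = 0.0333 over all probes, of which 9.57% rose). The Gusb probe standing for the gene gave 0.12. Lipa, the acid lipase of the lysosome, read 11.88 and 11.94 in control, 12.00 and 11.55 at 1 h, 10.61 and 10.38 at 6 h, and 11.16 and 11.14 at 24 h, and fell by 1.42 ± 0.17 at 6 h (adjusted p = 0.00219). Both its arrays at 6 h lay below all others. Galc, which degrades galactosylceramide, fell by 1.01 ± 0.20 (adjusted p = 0.0131), with 1 of its 2 arrays at 6 h not above background, and lost its call without control b or HGF 6 h a (adjusted p up to 0.0710). The sialidase Neu1 fell by 0.72 ± 0.15 (adjusted p = 0.0135) and lost its call without control a, control b or HGF 6 h a (up to 0.0678). Gla, the alpha-galactosidase, was not above background at 6 h and was at least 1.74-fold lower than control (adjusted p = 0.00752). The count of 14 dropped to 5 without control a, 4 without control b, 4 without HGF 6 h a and 5 without HGF 6 h b.

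Of 28 measured genes of the lysosomal membrane and its proton pump, the V-ATPase, 6 fell at 6 h (21.4%) and 0 rose, with a median of -0.37, and 3 of them fell without control b or HGF 6 h b. Over all genes, 12.1% were called lower and 9.28% higher at 6 h. Ctns, the cystine exporter, read 10.24 and 10.42 in control, 10.55 and 10.66 at 1 h, 9.31 and 9.26 at 6 h, and 10.32 and 10.50 at 24 h. It fell by 1.04 ± 0.13 at 6 h (adjusted p = 0.00244) and overlapped with control at 24 h. The pump subunit Atp6v1d fell by 1.25 ± 0.18 (adjusted p = 0.00436), Laptm4b by 0.95 ± 0.16 (adjusted p = 0.00734) and Tmem192 by 0.66 ± 0.14 (adjusted p = 0.0168). The call of Tmem192 was lost without control b, HGF 6 h a or HGF 6 h b (adjusted p up to 0.0838).

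Of 16 measured genes that sort enzymes to the lysosome, 0 rose at 6 h, against 9.28% of all genes. With a list median of -0.10, 4 fell (25%), against 12.1% of all genes. They were Nagpa, which uncovers the mannose 6-phosphate tag (-0.94 ± 0.12, adjusted p = 0.00248), the progranulin gene Grn (-0.77 ± 0.14, adjusted p = 0.00981), and the retromer subunits Vps35 (-0.57 ± 0.11, adjusted p = 0.0134) and Vps26a (-0.64 ± 0.16, adjusted p = 0.0270). Without 1 array, the calls of Grn (without control a or HGF 6 h b), Vps26a (without control b or either 6 h array) and Vps35 (without any of the 4 arrays compared) were lost, at adjusted p up to 0.0514, 0.127 and 0.0696. The other kept probe of Vps26a gave -0.42 ± 0.40 (adjusted p = 0.498 over all probes), and with the mean of its probes the call was lost. An Ap1s1 probe that does not stand for its gene rose at 6 h by 0.48 ± 0.13 (adjusted p = 0.0402 over all probes, of which 9.57% rose). The count of 4 was 2 without control a, control b or HGF 6 h a, and 1 without HGF 6 h b.

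Of 17 measured genes of the TFEB family and autophagy, 6 fell at 6 h (35.3%) and 0 rose, with a median of -0.41. Over all genes, 12.1% were called lower and 9.28% higher. Gabarapl1, which coats autophagosomes, read 10.95 and 10.96 in control, 10.73 and 10.92 at 1 h, 9.21 and 9.55 at 6 h, and 10.33 and 10.64 at 24 h, and fell by 1.57 ± 0.17 at 6 h (adjusted p = 0.00161). Its relative Map1lc3b fell by 1.31 ± 0.20 (adjusted p = 0.00482). Fnip1 and Flcn, partners that control where TFEB proteins reside, fell by 1.30 ± 0.14 (adjusted p = 0.00169) and 1.24 ± 0.16 (adjusted p = 0.00259). Tfeb, Mitf and Tfec were detected on 0 arrays, and Tfe3 differed from control by 0.16 ± 0.15 at 6 h (adjusted p = 0.498).

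**Figure D3:**
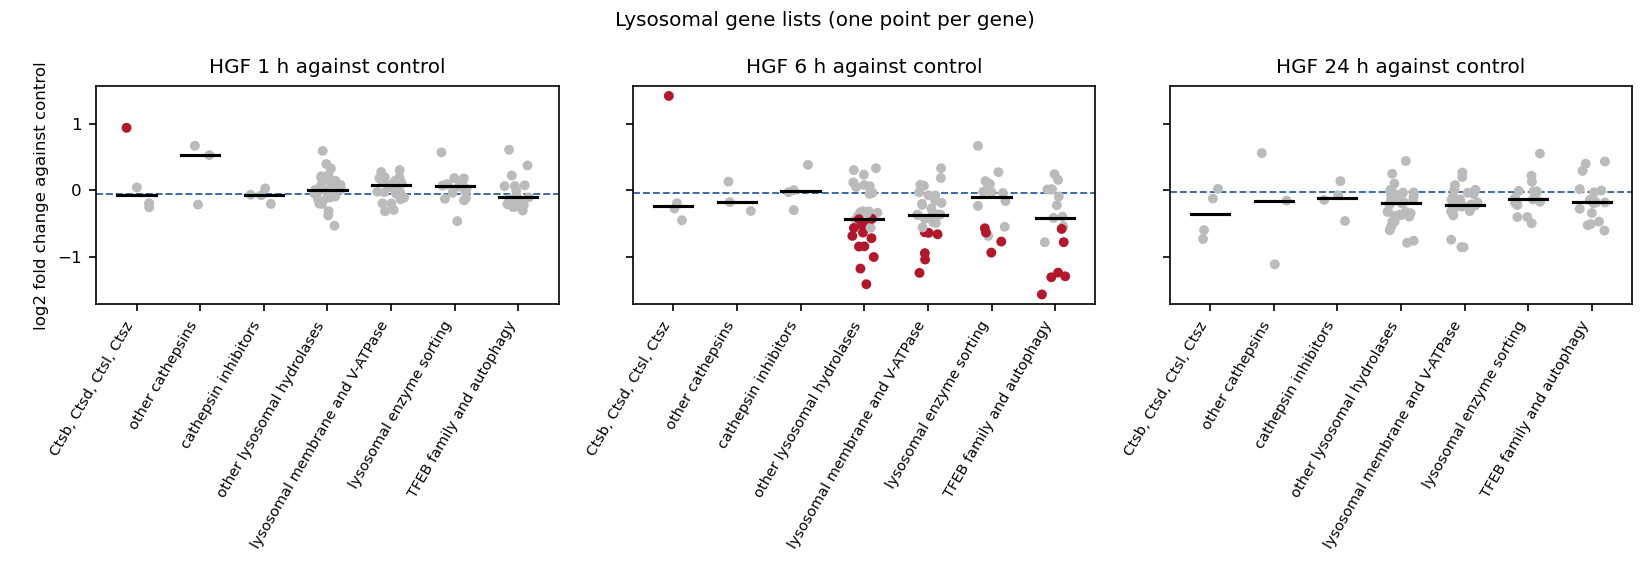
Log2 change against control at 1, 6 and 24 h of HGF (vertical axis, 1 panel per time) for the 4 cathepsins and each measured gene of the other lists. Each point is 1 gene, red at an adjusted p under 0.05, black bars are list medians and the dashed line is the median of all genes tested. At 6 h the red points of the 4 lists of lysosomal function lie below 0, and Ctsl lies at 1.43.

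Markers of other cell types are given beside these changes. For the blood cell marker Cd14, a co-receptor for bacterial lipopolysaccharide, the mean normalised log2 signal was 13.83 in control, 14.28 at 1 h, 13.29 at 6 h (adjusted p = 0.0139 against control) and 13.89 at 24 h. The log2 of the summed signal of the 3 measured blood cell markers was set almost wholly by Cd14. It ranged from 13.83 to 13.85 in control, 14.28 to 14.31 at 1 h, 13.28 to 13.33 at 6 h and 13.87 to 13.93 at 24 h. The dimmer Aif1 (mean 6.24 in control) and Coro1a (6.21) did not pass the limma test at 6 h (adjusted p = 0.635 and 0.0946 against control). The defining markers Ptprc, Adgre1 and Lyz2 were detected on 0 arrays. The hepatocyte marker Hnf4a ranged from 11.36 to 11.46 in control, 11.16 to 11.21 at 6 h and 10.88 to 11.15 at 24 h. The log2 of the summed signal of the 8 progenitor markers ranged from 16.66 to 16.81 in control and 16.54 to 16.63 at 24 h. That sum was set mostly by Krt8 (mean 15.64 in control) and Krt18 (15.20). The dimmer Sox9 had means of 7.81 in control, 9.03 at 1 h, 7.36 at 6 h and 6.51 at 24 h. By limma Sox9 fell from 1 h to 6 h (adjusted p = 0.0139), when 9.04% of all genes fell, and did not pass against control. The endothelial marker Eng, detected on 4 arrays, ranged from 5.82 to 5.97 in control and 6.06 to 7.06 at 6 h. Hnf4a and Eng did not pass the test against control. Whether the cells these markers stand for had a part in the lysosomal changes was not tested. In RNA from whole cultures, fewer cells of a type and less RNA per cell cannot be told apart.

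The genes whose profile over the 8 arrays was most like that of each cathepsin are given as a description, since the arrays share their groups. Nearest to Ctsl were Zdhhc13 (Pearson correlation 0.990), Tmem171 (0.987) and Mmp10 (0.987). Mmp10, a secreted metalloprotease, read 9.62 and 8.99 at 1 h and 11.49 and 11.68 at 6 h, and it was detected on 1 of the 2 control arrays and on 0 at 24 h. Zdhhc13, a palmitoyltransferase, rose by 0.52 at 1 h (adjusted p = 0.0444) and by 0.78 at 6 h (adjusted p = 0.00451).

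Nearest to Ctsz were Mpv17l (0.954), Celf2 (0.952) and Fblim1 (0.952), and nearest to Ctsd were Paxx (0.953), Rras (0.948) and Ifit3 (0.924). Nearest to Ctsb were Mccc1 (0.980), Magee1 (0.962) and Atp6ap2 (0.952), an accessory protein of the V-ATPase. Magee1 was dim, with a detection p of 0.0489 on HGF 6 h b. The other kept probes of Atp6ap2 gave 0.72, 0.60 and 0.25 against control at 24 h, where the probe used gave -0.22. The probes of this gene thus differed in direction, without a call at 24 h. Among the cathepsins themselves, Ctsd and Ctsz correlated at 0.742 over the 8 arrays and Ctsb and Ctsd at 0.461, and the other pairs lay between -0.233 and 0.261.

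**Figure D4:**
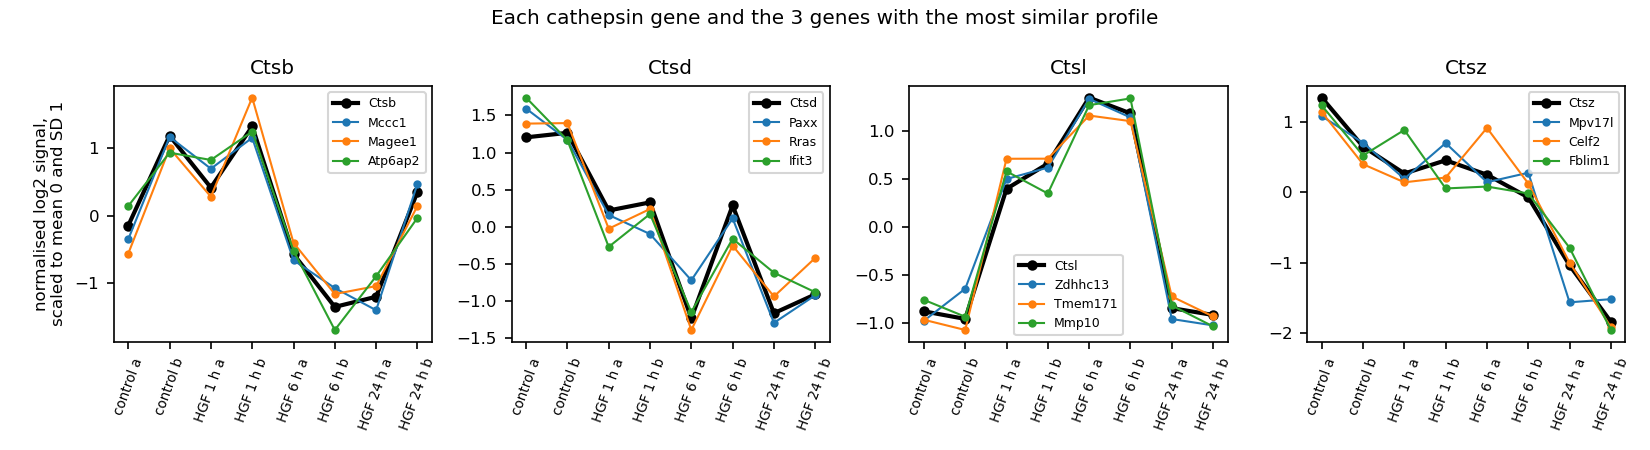
Normalised log2 signal of each cathepsin and of the 3 genes nearest to it, scaled for each gene to a mean of 0 and an SD of 1 over the 8 arrays (vertical axis), on each array (horizontal axis). Lines join the arrays to guide the eye. Ctsl and its nearest genes peak on the 6 h arrays, and Ctsz and its nearest genes are lowest at 24 h.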

How the data were processed

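RNA of 8 cultures was measured on 1-colour bead arrays, and the number of arrays limits the precision. Per the file headers, the authors deposited a raw summary signal, a linear intensity that is neither background subtracted nor normalized, with a detection p-value per probe and array. A second deposited table holds the authors' normalized intensity, linear and not centred, with array medians of 129.8 to 129.9 and the rank order of the raw arrays (Spearman correlation 1.00). For its normalization, the method was not given in the sources used here. GenomeStudio 1.9.0 appears in the submitters' processing notes.

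The normexp method of limma 3.58.1 under R 4.3.3 removed background from the raw intensity, with an offset of 16 and its parameters estimated through the detection p. Quantile normalization and log2 followed. Probes were kept (12024) if some group had a detection p under 0.05 on both of its arrays, and a gene was represented by its probe of highest mean (8183 genes). Probes were named from the platform annotation: 23978 had 1 symbol, 0 several and 1719 none, and 23962 were matched by gene identifier to RefSeq (GRCm38.p6). Groups were compared by lmFit and eBayes over all 8 arrays with 4 residual degrees of freedom and Benjamini-Hochberg adjustment. The fit was tested on simulated data. Where a gene was not above background in 1 group, its fold is a bound: the mean log2 signal of the brighter group is set against the dim group's signal or, if higher, the lowest detected signal of each dim array.

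The labels say that the whole experiment was repeated. Differences of replicate a minus b were positively correlated for all pairs of groups (Pearson correlation 0.194 to 0.443). The letter was therefore used as a block in an alternative fit, whereas the main fit left the replicates unpaired. Results of the blocked fit are printed where they change a call of a cathepsin or of a list count of 0 against control. The cathepsins and gene lists were chosen with earlier results of these data known. Named genes are the 4 cathepsins, all measured members of the other cathepsins and inhibitors, in each list and comparison with control up to 4 called genes with the smallest adjusted p, and the 3 nearest profiles. Tfe3, Cd14, Hnf4a, Eng, Sox9, Gusb, Pla2g15 and the list genes called with the block alone were named after their values were seen. The inhibitors Cstb, Serpinb6a and Serpinb6b are named without values. Alternatives were the authors' table, median scaling, other background, filter and probe choices, an intensity trend, and leaving out each array.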

Additional observations from a re-analysis of the deposited data

Results flagged for a closer look

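The response of Ctsl differed between times by a direct test. From 1 h to 6 h it changed by 0.48 ± 0.12 (log2, adjusted p = 0.0338), and from 6 h to 24 h by -1.41 ± 0.12 (adjusted p = 0.00163), with limma over 8 arrays. The call from 1 h to 6 h was lost under median scaling (0.41, adjusted p = 0.201) and with an intensity trend (0.48, adjusted p = 0.0611). It was also lost without any 1 array other than control a, at 0.40 to 0.57.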

How the results depend on the processing

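With 2 arrays a group, a call rests on spread pooled over all groups. The rise of Ctsl at 6 h and its fall from 6 h to 24 h kept their calls in all 9 alternatives, at 1.12 to 1.43 and -1.41 to -1.10. The main values, 1.43 and -1.41, were the largest in size among these. Both calls were also kept without any 1 array (1.38 to 1.49 and -1.47 to -1.35). Leaving out 1 array moved Ctsl at 1 h between 0.86 and 1.03, Ctsl from 1 h to 6 h between 0.40 and 0.57, and Ctsd at 6 h between -0.66 and -0.25. The step of Ctsl from 1 h to 6 h lost its call under median scaling (0.41) and with an intensity trend (0.48). Calls gained were Ctsd at 6 h with the replicate block (-0.45) and under median scaling (-0.62), Ctsz at 24 h with the block (-0.73) and without background correction (-0.62), and Ctsz from 6 h to 24 h with the block (-0.46). The block changed no other call of the 4 cathepsins. The cause of these changes was not tested.

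Median scaling moved the median of all genes at 6 h by -0.13, and relative to that median Ctsl was at 1.42 and Ctsd at -0.46. It left 322 genes higher and 963 lower at 6 h (25.1% of calls higher, against 43.3% of 759 and 993). From 1 h to 6 h it gave 258 and 455 (36.2% higher against 48.0% of 682 and 740), from 6 h to 24 h 454 and 209 (68.5% against 52.3% of 568 and 519), and at 1 h 142 higher against 215. The block gave 375 higher and 365 lower at 1 h (215 and 177 without it), 163 and 277 at 24 h (0 and 0 without it), and 786 lower from 6 h to 24 h (519 without it). At 24 h the authors' table gave 26 and 38, no background correction 29 and 46, an intensity trend 55 and 75, offset 50 gave 1 lower, and probes detected on all arrays 2 lower. Leaving out 1 array gave 73 to 187 higher and 6 to 137 lower at 1 h, 377 to 701 higher and 465 to 890 lower at 6 h, 268 to 572 higher and 297 to 669 lower from 1 h to 6 h, and 151 to 537 higher and 130 to 487 lower from 6 h to 24 h. For the genes falling at 6 h it gave 13 to 27 of the lysosomal lists together, 4 to 11 hydrolases, 3 to 6 membrane genes, 1 to 4 sorting genes and 4 to 6 TFEB and autophagy genes, and for the lists together 10 to 30 falling from 1 h to 6 h and 2 to 11 rising from 6 h to 24 h. The membrane list had 10 genes falling at 6 h with the authors' table, no background correction or offset 50, and 12 with an intensity trend, against 6. In 6 alternatives 1 sorting gene was called higher at 6 h, and with the mean of probes 1 hydrolase, against 0. List counts other than with the block were alternatives chosen after seeing the data. The slide as a block was not run because the files used here name no slides. Gla at 6 h, not above background, has only a bound.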

Other observations

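For the measured genes in the lists of lysosomal function, RefSeq promoter windows (GRCm38.p6) ran from 250 bases before to 50 after the start. Windows are counted here and not genes, since a gene can have several or none. The E-box CACGTG stood in 8 of 36 hydrolase windows (22.2%) and 8 of 25 windows of the lysosomal membrane and V-ATPase (32%). It stood in 6 of 14 sorting windows (42.9%) and 4 of 15 windows of the TFEB family and autophagy (26.7%), against 7.15% of all promoters. The AP-1 motif TGANTCA stood in 3 of the 36 hydrolase windows (8.33%), 2 of the 25 membrane windows (8%) and 0 of the 14 sorting windows. For the TFEB family and autophagy it stood in 1 of the 15 windows (6.67%), against 7.81% of all promoters. These shares describe the letters in the windows. The list windows belong to genes measured in these cells, whereas all promoters include those of genes not measured. A share over the measured genes alone was not computed, so the shares compare unlike sets.

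From 6 h to 24 h the genes of these lists that rose were the hydrolases Arsa, Galc, Lipa and Neu1, the cystine exporter Ctns, the sorting genes Nagpa, Vps35 and Grn, and the autophagy genes Sqstm1, Gabarapl1, Flcn, Fnip1 and Rragc. They were named after their values were seen, and the count of 13 became as few as 2 when 1 array, HGF 24 h b, was left out.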
